A study of Mus musculus with 9 samples.

Results

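The genes described here are the epithelial cytokines of type 2 inflammation, TSLP and IL-33, the lymphocyte cytokines IL-4 and IL-13, and receptor chains for these cytokines and for IL-31. They were chosen by name, with earlier results of these data known. A gene entered when a row of the array table carried its symbol and no other. Of 10 genes listed, 9 were measured (Tslp, Crlf2, Il33, Il4, Il13, Il4ra, Il13ra1, Il13ra2 and Il31ra), out of 19938 genes in all. Each of the 9 has 1 probe set, and Il1rl1, the gene of the IL-33 receptor, was not analysed here. Whole ear skin came from female C57BL/6 mice of 7 to 9 weeks in 3 groups of 3 arrays, one treated with anisomycin, one with imiquimod and one with vehicle. Anisomycin, an inhibitor of ribosomal protein synthesis that also activates stress kinases, was put on both sides of the ear once a day for 5 days, at 2 mg/ml in ethanol and 10 µl a side. Imiquimod, a Toll-like receptor 7 agonist whose cream is a common way to provoke psoriasis-like dermatitis in mice, was given as 10 mg of a 5% cream once daily for 5 days. The labels do not say what the vehicle was or how often it was given, so solvent, cream base and handling cannot be told apart from the drugs.

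TSLP and IL-33 are called alarmins because barrier cells such as keratinocytes make or hold them and release them on damage. TSLP binds a receptor of CRLF2 and the IL-7 receptor alpha chain and acts on dendritic cells, basophils and lymphocytes, while IL-33 binds the receptor encoded by Il1rl1 together with the IL-1 receptor accessory protein. Both can drive innate lymphoid cells and T helper cells to make IL-4, IL-5 and IL-13. IL-4 and IL-13 signal through the IL-4 receptor alpha chain, which pairs with the common gamma chain or with IL-13 receptor alpha 1, to STAT6. IL-13 receptor alpha 2 binds IL-13 tightly and is known mainly as a decoy. The IL-31 receptor joins the IL-31 receptor A chain with the oncostatin M receptor and is known for its part in itch.

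Values are log2 expression values as made by RMA, where each unit of difference is a doubling. A gene is called here when its Benjamini-Hochberg adjusted p, from limma's moderated test over all 19938 genes, was under 0.05. Array medians were 6.01 for the anisomycin arrays, 6.02 to 6.03 for imiquimod and 6.08 to 6.10 for vehicle. The table gives no detection calls, so signal over background was not tested. Whether the arrays of a group are separate mice is given only as n = 3, and p-values measure the spread between these arrays.

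Both alarmin genes rose with anisomycin, and Il33, but not Tslp, was also called higher with imiquimod. Tslp (probe set 10454601) had log2 values of 7.02, 7.57 and 7.93 in anisomycin ears, 5.57, 5.73 and 5.72 in imiquimod ears and 5.26, 4.91 and 5.32 in vehicle ears. All 3 anisomycin arrays lay above every other array, and the imiquimod arrays lay above the vehicle arrays by a small margin. The mean was 7.51 ± 0.46 for anisomycin, 5.67 ± 0.091 for imiquimod and 5.16 ± 0.22 for vehicle (SD, n = 3 each). Against vehicle, Tslp rose by 2.34 on the log2 scale with anisomycin (SE 0.20, 5.07-fold, limma adjusted p = 1.39e-05). With imiquimod the difference was 0.51 (SE 0.20, 95% interval 0.05 to 0.96) and was not called (limma adjusted p = 0.0709). That miss was close to the threshold. Over 18 other settings the adjusted p was 0.0108 to 0.215, it passed in 7 of them, and it fell to 0.0115 without anisomycin replicate 1 and to 0.0265 without anisomycin replicate 3, arrays that enter this contrast only through the pooled spread. The direct test of anisomycin against imiquimod gave a difference of 1.83 (SE 0.20, 3.56-fold, limma adjusted p = 0.000527), which was called in all 18 settings.

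Il33 (probe set 10462442) showed 3 separate levels. Its log2 values were 11.40, 11.50 and 11.44 in anisomycin ears, 10.12, 10.16 and 10.12 in imiquimod ears and 8.83, 8.08 and 9.02 in vehicle ears. No 2 groups overlapped, and the vehicle arrays were the most spread, with replicate 2 lowest. Against vehicle the rise was 2.80 with anisomycin (SE 0.19, 6.97-fold, limma adjusted p = 3.91e-06) and 1.49 with imiquimod (SE 0.19, 2.81-fold, limma adjusted p = 0.000222). Anisomycin exceeded imiquimod by 1.31 (SE 0.19, 2.48-fold, limma adjusted p = 0.0022). Without vehicle replicate 2 these rises over vehicle were 2.52 and 1.21, and all 3 calls held in each of 18 other settings. In whole-ear RNA, more or fewer cells of a type and more or less RNA per cell cannot be told apart.

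Crlf2, which encodes the TSLP-binding chain, moved much less than its ligand. It stood at 7.78, 7.75 and 7.60 in anisomycin ears, 7.37, 7.45 and 7.50 in imiquimod ears and 7.41, 7.50 and 7.04 in vehicle ears. Anisomycin arrays lay above both other groups, which overlapped each other. The rise over vehicle with anisomycin was 0.39 (SE 0.11, limma adjusted p = 0.0159), and the call ended without anisomycin replicate 1 (0.0515) or 2 (0.0546). The difference was 0.12 for imiquimod against vehicle (95% interval -0.13 to 0.37) and 0.27 for anisomycin against imiquimod (95% interval 0.02 to 0.52), and neither was called (limma adjusted p = 0.428 and 0.126). The contrast of anisomycin with imiquimod passed in 3 of 18 other settings. These were array weights (0.00415), a fit of only the groups compared (0.0274) and the fit without vehicle replicate 3 (0.0249).

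**Figure D1:**
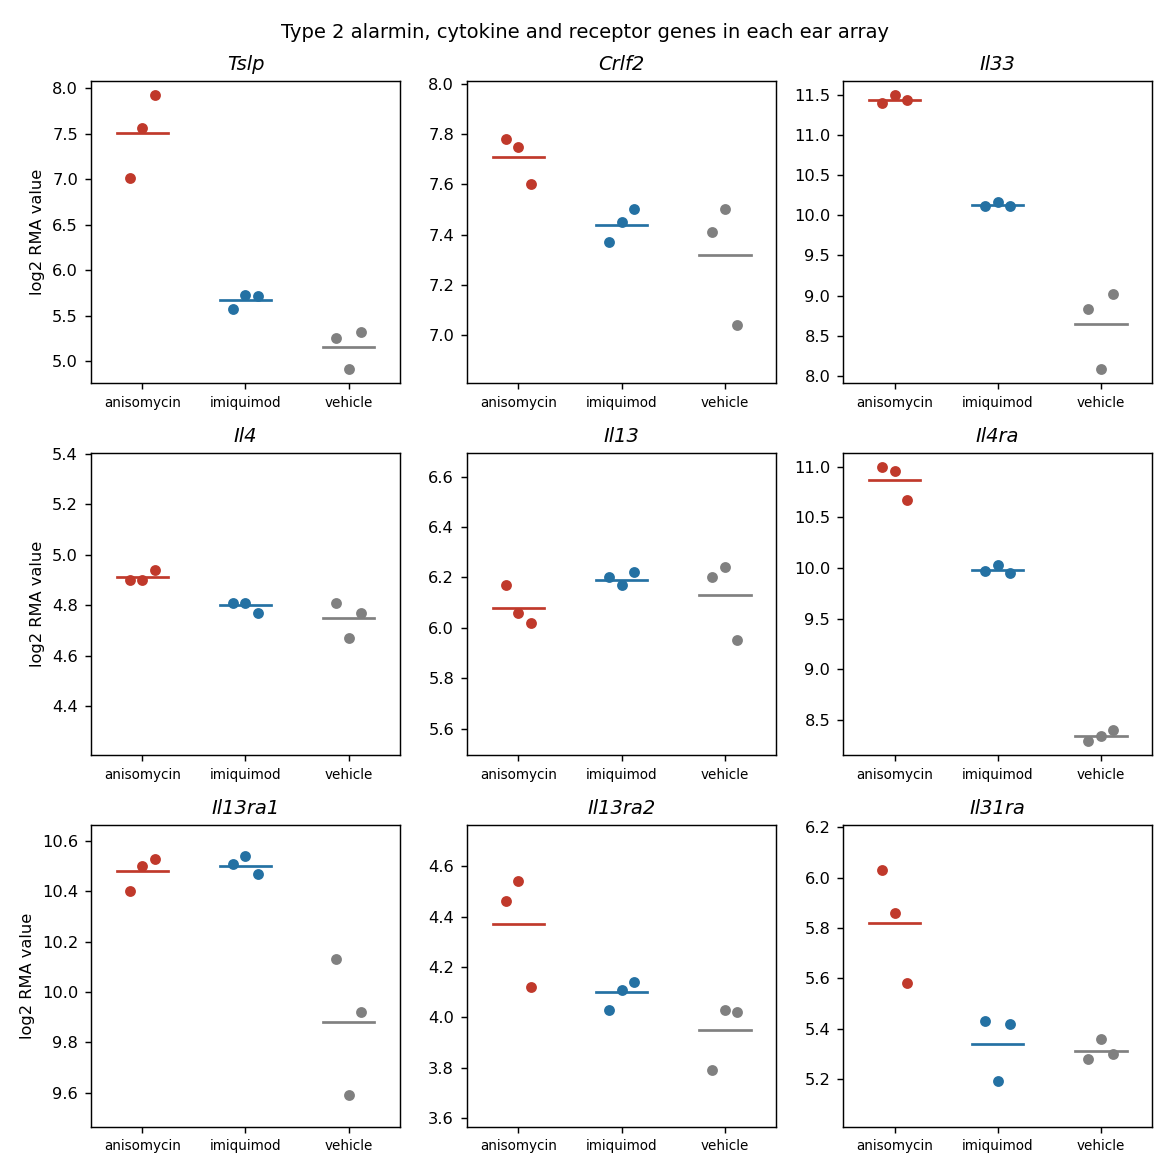
Log2 RMA values of the 9 measured genes in each of the 9 arrays, 1 panel a gene with its own vertical axis. Points are arrays in order of replicate number and horizontal lines are group means of 3. Tslp, Il33 and Il4ra reach 7.93, 11.50 and 11.00 in anisomycin ears, while Il4 spans 0.27 and Il13 spans 0.28 over all 9 arrays.

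Among the receptor chains, Il4ra showed the largest change. Il4ra (probe set 10557326), the chain shared by both IL-4 receptor types, had log2 values of 11.00, 10.96 and 10.67 in anisomycin ears, 9.97, 10.03 and 9.95 in imiquimod ears and 8.29, 8.34 and 8.40 in vehicle ears. As for Il33, no groups overlapped and the order was anisomycin, imiquimod, vehicle. The rise over vehicle was 2.53 with anisomycin (SE 0.083, 5.79-fold, limma adjusted p = 5.57e-08) and 1.64 with imiquimod (SE 0.083, 3.12-fold, limma adjusted p = 1.09e-06). Anisomycin exceeded imiquimod by 0.89 (SE 0.083, 1.86-fold, limma adjusted p = 0.000241). These 3 calls held in all 18 settings.

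Il13ra1, the partner of Il4ra in the receptor that IL-13 uses, rose with both treatments. Its values were 10.40, 10.50 and 10.53 in anisomycin ears, 10.51, 10.54 and 10.47 in imiquimod ears and 10.13, 9.59 and 9.92 in vehicle ears. The treated groups overlapped each other and lay above all vehicle arrays. The rise was 0.60 with anisomycin (SE 0.12, limma adjusted p = 0.00202) and 0.62 with imiquimod (SE 0.12, limma adjusted p = 0.00179). The difference between the treatments was -0.03, with a 95% interval of -0.29 to 0.23 (limma adjusted p = 0.916).

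Il13ra2, the decoy receptor gene, gave low signals, with a mean over the 9 arrays at percentile 12.2 of all genes. It had log2 values of 4.46, 4.54 and 4.12 in anisomycin ears, 4.03, 4.11 and 4.14 in imiquimod ears and 3.79, 4.03 and 4.02 in vehicle ears. Anisomycin replicate 3 lay within the range of the imiquimod arrays, while the other 2 anisomycin arrays lay above all others. The rise over vehicle was 0.43 with anisomycin (SE 0.11, limma adjusted p = 0.01). It was 0.15 with imiquimod (95% interval -0.10 to 0.40) and was not called (limma adjusted p = 0.324). The difference of 0.28 between anisomycin and imiquimod was not called (limma adjusted p = 0.113) but passed without anisomycin replicate 3, at 0.41 (0.00902).

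Il31ra, the IL-31 binding chain, rose with anisomycin and was not called with imiquimod. The arrays read 6.03, 5.86 and 5.58 in anisomycin ears, 5.43, 5.19 and 5.42 in imiquimod ears and 5.28, 5.36 and 5.30 in vehicle ears. Anisomycin arrays lay above all 6 others, and imiquimod and vehicle arrays overlapped. Against vehicle the difference was 0.51 with anisomycin (SE 0.11, limma adjusted p = 0.00393) and 0.03 with imiquimod (95% interval -0.21 to 0.28, limma adjusted p = 0.844). The direct difference of 0.48 between anisomycin and imiquimod was called (SE 0.11, limma adjusted p = 0.0157), and the call ended without anisomycin replicate 2 (0.0582) or imiquimod replicate 2 (0.0626).

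The lymphocyte cytokine genes differed little between the groups. Il4, the signature cytokine of T helper 2 cells, had values of 4.90, 4.90 and 4.94 in anisomycin ears, 4.81, 4.81 and 4.77 in imiquimod ears and 4.81, 4.67 and 4.77 in vehicle ears. All 9 arrays lay within 0.27 of each other. The difference from vehicle was 0.16 with anisomycin (SE 0.051, limma adjusted p = 0.0265), and it was 0.05 and not called with imiquimod (limma adjusted p = 0.501). Anisomycin and imiquimod differed by 0.11, which was not called (limma adjusted p = 0.162). The anisomycin call was the least stable of the 8, ending in 5 of 17 other settings, among them without anisomycin replicate 2 (0.0577), without anisomycin replicate 3 (0.0737) and without vehicle replicate 2 (0.0645). It also ended with arrays centred on stable genes, where the difference was 0.08 (0.193).

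Il13, the cytokine that shares the Il4ra chain with Il4, stood at 6.17, 6.06 and 6.02 in anisomycin ears, 6.20, 6.17 and 6.22 in imiquimod ears and 6.20, 6.24 and 5.95 in vehicle ears. Each treated group overlapped the vehicle group. The difference from vehicle was -0.05 with anisomycin (95% interval -0.23 to 0.13, limma adjusted p = 0.659) and 0.07 with imiquimod (95% interval -0.11 to 0.24, limma adjusted p = 0.555). Anisomycin and imiquimod differed by -0.12 (95% interval -0.29 to 0.06), which was not called (limma adjusted p = 0.369). This difference passed with array weights, at -0.13 (0.0389).

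In the anisomycin contrast with vehicle, 8 of the 9 genes were called and all 8 were higher, against a background in which 45.6% of all genes were called, 22.3% higher and 23.3% lower. The median difference was 0.51 over the 9 genes and -0.01 over all genes. In the imiquimod contrast with vehicle, 3 of the 9 were called, all higher, where 42.7% of all genes were called, 20.4% higher and 22.4% lower, and the medians were 0.15 and -0.03. Between anisomycin and imiquimod, 4 of the 9 (Tslp, Il33, Il4ra and Il31ra) were called higher with anisomycin, where 20.4% of all genes were called, 10.8% higher and 9.59% lower. Groups did not overlap, with the first group higher, for 8, 5 and 6 of the 9 genes in these 3 contrasts, against 24.9%, 24.4% and 21.4% of all genes. In either direction the groups did not overlap for 51.3%, 51.8% and 39.3% of all genes. Both treatments are set against the same 3 vehicle arrays. The 9 genes were chosen with earlier results of these data known, so these counts describe them and do not test them against all genes. The share of higher among all called genes depended on the scaling: it was 49.0% for anisomycin and 47.7% for imiquimod against vehicle, 37.1% and 36.4% with arrays centred on 1000 genes of stable rank, and 56.4% and 54.7% with arrays centred on their medians.

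**Figure D2:**
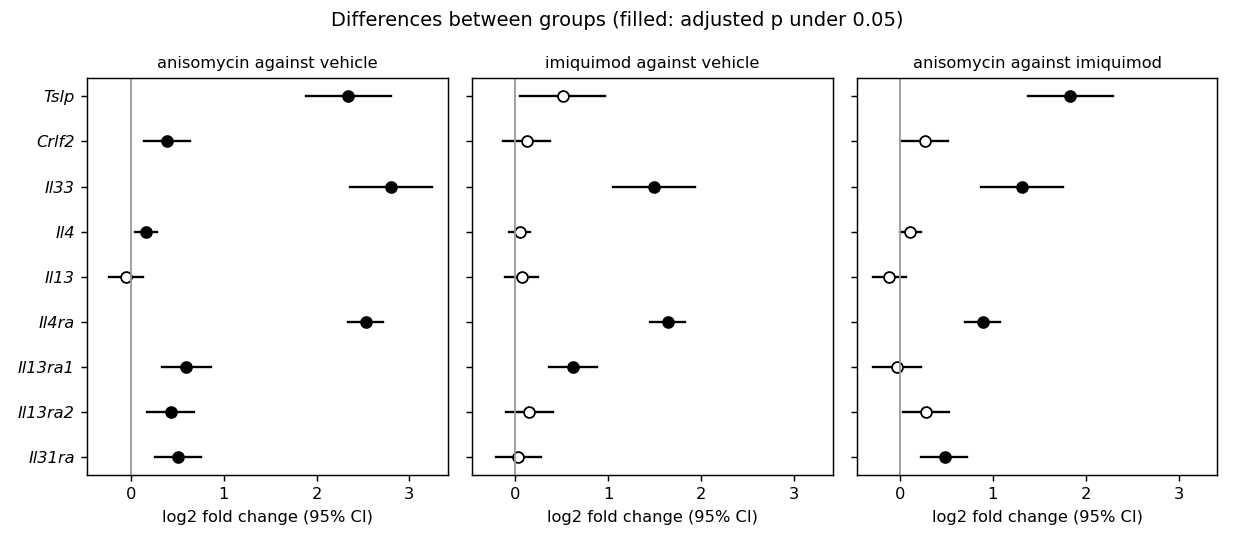
Log2 fold changes of the 9 genes in the 3 contrasts, as points with 95% confidence intervals from limma that are not adjusted for the number of genes. Filled points are called at an adjusted p under 0.05. Il33 and Il4ra are filled in every panel, Tslp is at 2.34, 0.51 and 1.83 from left to right, and Il13 lies near 0 in each.

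The regions around the start sites are shown for 3 of the genes that differed between the treatments, Il33 with its pair of annotated start regions, Il4ra and Il31ra. Tslp also differed, and its start region is not reported here. Each sequence runs 5′ to 3′ on the gene's strand over 300 bases, from 250 before to 50 after the RefSeq start, in build GRCm38.p6. Capitals mark matches, on either strand, to 4 motifs: AP-1 (TGANTCA), a STAT site (TTCNNNGAA), the STAT6 site, which has a spacer longer by 1 base, and NF-kB, searched by its degenerate consensus. The 4 do not overlap one another in these sequences.
Il33, first start region, chr19:29924863-29925162, plus strand: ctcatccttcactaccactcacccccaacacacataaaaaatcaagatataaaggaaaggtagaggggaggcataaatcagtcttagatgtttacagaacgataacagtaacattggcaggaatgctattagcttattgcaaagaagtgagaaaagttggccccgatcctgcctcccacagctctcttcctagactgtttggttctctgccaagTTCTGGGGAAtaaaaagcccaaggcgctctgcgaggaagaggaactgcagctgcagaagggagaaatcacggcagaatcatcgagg
Il33, second start region, chr19:29945540-29945839, plus strand: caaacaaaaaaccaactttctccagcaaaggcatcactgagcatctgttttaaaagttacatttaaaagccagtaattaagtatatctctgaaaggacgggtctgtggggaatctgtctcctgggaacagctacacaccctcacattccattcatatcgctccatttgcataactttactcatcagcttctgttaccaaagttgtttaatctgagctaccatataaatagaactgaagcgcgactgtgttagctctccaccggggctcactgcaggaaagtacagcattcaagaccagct
Il4ra, chr7:125552021-125552320, plus strand: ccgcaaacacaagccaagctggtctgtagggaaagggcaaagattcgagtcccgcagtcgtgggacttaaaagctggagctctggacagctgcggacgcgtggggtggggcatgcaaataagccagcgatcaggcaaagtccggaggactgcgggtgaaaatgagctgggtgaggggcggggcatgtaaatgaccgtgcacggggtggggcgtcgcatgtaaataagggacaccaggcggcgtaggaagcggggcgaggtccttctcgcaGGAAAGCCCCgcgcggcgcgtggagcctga
Il31ra, chr13:112580613-112580912, minus strand: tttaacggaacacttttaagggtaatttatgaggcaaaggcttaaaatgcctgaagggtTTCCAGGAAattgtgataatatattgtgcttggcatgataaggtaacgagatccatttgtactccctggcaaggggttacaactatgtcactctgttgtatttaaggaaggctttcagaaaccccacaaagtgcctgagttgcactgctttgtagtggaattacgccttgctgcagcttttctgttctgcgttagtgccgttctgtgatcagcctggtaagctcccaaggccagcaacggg
The first Il33 region holds 1 STAT6-spaced match upstream of and near the start, Il4ra holds 1 NF-kB match downstream of its start, and Il31ra holds 1 STAT match farther upstream. The second Il33 region holds none of the 4. Over 10 start regions of the 8 measured genes other than Tslp, AP-1 and NF-kB were found in 1 each and the STAT and STAT6 motifs in 2 each. No motif was common to Il33, Il4ra and Il31ra. Among all 32851 regions of this length the share with a match was 7.81% for AP-1, 8.30% for STAT, 6.95% for STAT6 and 8.46% for NF-kB. A match is a run of letters and not a measured binding site, and the array does not tell which Il33 start was used.

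The genes whose pattern over the 9 arrays came closest to Tslp, Il33 and Il4ra were found by the root mean square difference of log2 values, each gene less its own mean. For Tslp these were Neu2, a sialidase (0.263), the tight junction gene Cldn4 (0.307) and the organic anion transporter Slco1a5 (0.322). Neu2 averaged 8.75 in anisomycin ears, 6.82 in imiquimod ears and 6.58 in vehicle ears. For Il33 they were Serpinb2, an inhibitor of plasminogen activators (0.19), the amino acid transporter Slc6a14 (0.195) and the costimulatory ligand Cd80 (0.246), with Serpinb2 at 12.06, 10.76 and 9.61 in anisomycin, imiquimod and vehicle ears. For Il4ra they were Ddah1, which breaks down methylated arginines (0.105), the chemokine Ccl9 (0.114) and the early response gene Ier3 (0.123), with Ddah1 at 9.13, 8.17 and 6.51 in the same order. No other measured gene of the 9 ranged over as much as 1 across the arrays.

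The second chain of the TSLP receptor, Il7r, separated the treatments. Il7r read 7.56, 7.44 and 7.12 in anisomycin ears, 6.15, 6.27 and 6.50 in imiquimod ears and 6.50, 6.13 and 6.35 in vehicle ears. The anisomycin arrays lay above all 6 others, and the other groups overlapped. Its difference from vehicle was 1.05 with anisomycin (SE 0.14, limma adjusted p = 0.000182) and -0.02 with imiquimod (limma adjusted p = 0.926), and the direct difference of 1.07 was called (SE 0.14, limma adjusted p = 0.00112). Of 9 measured genes of TSLP receptor signalling, 5 rose and 1 fell with anisomycin, where 45.6% of all genes were called. With imiquimod 1 rose and 2 fell, where 42.7% were called, and the medians were 0.24 and -0.02. The imiquimod count of 3 called genes was 5, with 1 higher, when arrays were centred on stable genes. The kinase gene Jak2 rose by 1.06 with anisomycin and was at 0.22 and not called with imiquimod (limma adjusted p = 0.203). Stat3 rose by 0.86 and 0.83, and the survival gene Bcl2 changed by -0.74 and -0.61. Between the treatments 4 of the 9 were called higher with anisomycin and none lower, where 10.8% of all genes were higher and 9.59% lower. Among the 4 were the cytokine-induced feedback genes Cish (0.79) and Socs2 (0.80). Cish rose against vehicle with anisomycin (0.50, limma adjusted p = 0.0112), whereas Socs2 was at -0.08 with anisomycin (limma adjusted p = 0.713) and fell with imiquimod (-0.89, limma adjusted p = 0.0013).

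Of 10 measured genes of IL-33 receptor signalling, 7 rose and 2 fell with anisomycin, where 22.3% of all genes were called higher, and 7 rose and 1 fell with imiquimod, where 20.4% were, with medians of 0.60 and 0.40. Sigirr, an inhibitory receptor of the family, fell with both treatments (-0.48 and -0.33), and the kinase gene Irak1 fell with anisomycin (-0.28). Il1rap, the accessory chain that Il33 shares with IL-1 and IL-36, had values of 8.78, 8.89 and 8.38 in anisomycin ears, 8.24, 8.32 and 8.53 in imiquimod ears and 7.96, 7.66 and 8.0 in vehicle ears. The treated groups overlapped each other and lay above vehicle. Its rise was 0.81 with anisomycin (SE 0.14, limma adjusted p = 0.00121) and 0.49 with imiquimod (SE 0.14, limma adjusted p = 0.02), and the imiquimod call ended without imiquimod replicate 3 (0.0771) or vehicle replicate 2 (0.071). The adaptor gene Myd88 rose by 1.39 and 1.32, and the NF-kB subunit gene Rela by 1.07 and 0.46, with a called difference of 0.61 between the treatments (SE 0.078, limma adjusted p = 0.00105). These genes also serve IL-1 and Toll-like receptors.

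The gene of the third epithelial cytokine of this kind, IL-25, was not called with anisomycin, unlike Tslp and Il33. With imiquimod it narrowly missed the threshold, as did Tslp. Il25 stood at 5.59, 5.59 and 5.57 in anisomycin ears, 5.63, 5.59 and 5.74 in imiquimod ears and 5.59, 5.47 and 5.30 in vehicle ears, and its differences from vehicle, 0.13 and 0.20, were not called (limma adjusted p = 0.196 and 0.06). Its receptor gene Il17rb fell to 6.05, 6.12 and 6.23 in anisomycin ears and 6.14, 6.35 and 6.36 in imiquimod ears, against 7.17, 7.22 and 7.11 in vehicle ears. Every treated array lay below every vehicle array. The change was -1.03 with anisomycin (SE 0.074, limma adjusted p = 4.56e-06) and -0.88 with imiquimod (SE 0.074, limma adjusted p = 1.62e-05). Il17ra, the chain that IL-25 shares with IL-17, rose by 1.32 and 0.73.

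Signal transducers of IL-4 and IL-13 moved in both directions. Of 8 measured, 4 rose and 2 fell with anisomycin, where 45.6% of all genes were called. With imiquimod 4 rose and 1 fell, where 42.7% were called, and the medians were 0.19 and 0.21. Stat6, the factor both cytokines activate, had values of 9.84, 9.75 and 9.71 in anisomycin ears, 9.64, 9.60 and 9.64 in imiquimod ears and 9.40, 9.40 and 9.44 in vehicle ears. The groups did not overlap, yet the steps from vehicle were small, 0.36 with anisomycin (SE 0.05, limma adjusted p = 0.000279) and 0.21 with imiquimod (SE 0.05, limma adjusted p = 0.00656). The difference of 0.14 between the treatments was not called (limma adjusted p = 0.0771). The imiquimod call ended after repeated quantile normalization, at 0.06 (0.464), and with arrays centred on stable genes, at 0.14 (0.0575). The suppressor gene Socs3 rose by 2.40 and 1.78, while Irs1, an insulin receptor substrate that IL-4 also uses, changed by -1.85 and -1.56.

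Of 4 genes around the IL-31 receptor (Il31, Osmr, Osm and Il6st), 2 rose with anisomycin, and 2 rose and 1 fell with imiquimod. Those counts stand beside 45.6% and 42.7% of all genes called. Osmr, which completes the IL-31 receptor and also binds oncostatin M, had values of 10.54, 10.32 and 10.04 in anisomycin ears, 9.76, 9.83 and 9.77 in imiquimod ears and 8.50, 8.42 and 8.76 in vehicle ears. The 3 groups did not overlap. Osmr rose by 1.74 with anisomycin (SE 0.13, limma adjusted p = 4.9e-06) and 1.22 with imiquimod (SE 0.13, limma adjusted p = 5.28e-05). The difference of 0.52 between the treatments was called (limma adjusted p = 0.0192), but the call ended without anisomycin replicate 1 or 2 or any imiquimod replicate, at up to 0.0656. Osm, the gene of oncostatin M, rose by 3.26 and 2.04. Il6st, the gp130 chain that oncostatin M and IL-6 use, was at 0.21 with anisomycin (limma adjusted p = 0.0573) and -0.24 with imiquimod (limma adjusted p = 0.0326), and the imiquimod call ended without any 1 of the imiquimod or vehicle arrays, at up to 0.109. Il31 was at 5.37 ± 0.061 in anisomycin ears, 5.32 ± 0.092 in imiquimod ears and 5.42 ± 0.024 in vehicle ears (SD, n = 3 each), with differences from vehicle of -0.05 and -0.10 that were not called (limma adjusted p = 0.515 and 0.209).

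Genes of type 2 lymphocytes were called about as often as all genes with anisomycin and less often with imiquimod. Of 17 measured, 4 rose and 4 fell with anisomycin, where 45.6% of all genes were called, and 1 rose and 2 fell with imiquimod, where 42.7% were, with medians of -0.02 and -0.06. The imiquimod count of 3 called genes was 1, with none higher, without imiquimod replicate 1, imiquimod replicate 3 or vehicle replicate 3, and it was 5 after repeated quantile normalization and 6 with array weights. The anisomycin count of 8 was 5, with 1 higher, without the dimmest 30% of genes. Il5, the eosinophil growth factor, was at 3.90, 3.82 and 3.84 in anisomycin ears, 3.74, 3.82 and 3.82 in imiquimod ears and 3.81, 4.10 and 3.76 in vehicle ears, and was called in neither contrast (limma adjusted p = 0.776 and 0.438). Its group means, 3.85, 3.80 and 3.89, were under 3.98, the highest mean among the dimmest 10% of genes. How far such a low signal understates a change was not tested. With anisomycin the transcription factor genes Gata3 and Rora changed by -1.35 (SE 0.19) and -1.25 (SE 0.17), and Ccr4, a chemokine receptor of skin-homing T cells, by -1.30 (SE 0.16), with limma adjusted p of at most 0.000284. Gata3 and Rora are also made in skin epithelium, so their levels are not those of lymphocytes alone. Csf2, the gene of GM-CSF, rose by 0.78 with anisomycin (SE 0.071, limma adjusted p = 1.87e-05) and was at 0.09 with imiquimod (limma adjusted p = 0.342). Csf2 signals were low, with means of 5.16, 4.47 and 4.37 in anisomycin, imiquimod and vehicle ears. It is among the dimmest 30% of genes left out in the setting above. Ccr4 was lower by 1.27 with anisomycin than with imiquimod (log2 difference -1.27, limma adjusted p = 0.000895) and Csf2 was higher by 0.69 (limma adjusted p = 0.000399).

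Genes that IL-4 and IL-13 induce in macrophages and skin did not move one way. Of 18 measured, 8 rose and 6 fell with anisomycin, where 45.6% of all genes were called. With imiquimod 7 rose and 6 fell, where 42.7% were called, and the medians were 0.07 and 0.06. Retnla, a marker of alternatively activated macrophages, fell to 3.45, 3.53 and 3.49 in anisomycin ears and 3.61, 3.71 and 3.78 in imiquimod ears, against 5.37, 5.84 and 5.15 in vehicle ears. The change was -1.96 with anisomycin and -1.75 with imiquimod (SE 0.15 each, limma adjusted p = 5.74e-06 and 1.62e-05). The Retnla means in anisomycin and imiquimod ears, 3.49 and 3.70, were under 3.98, the highest mean among the dimmest 10% of genes. How far such a low signal limits the size of the fall was not tested. The lectin gene Mgl2, found on dermal dendritic cells and macrophages, changed by -1.71 and -1.87. Arg1, the arginase gene of such macrophages and of other myeloid cells, rose by 1.71 and 1.09, and the chemokine gene Ccl8 by 1.80 and 0.68. Chil3, a chitinase-like protein gene also made by neutrophils, rose by 0.78 and 1.63, and was lower in anisomycin than in imiquimod ears (difference -0.85, limma adjusted p = 0.0012).

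Genes known to bear on Tslp output of keratinocytes moved in both directions. Of 10 measured, 3 rose and 4 fell with anisomycin, where 45.6% of all genes were called. With imiquimod 2 rose and 3 fell, where 42.7% were called. Klk5, a kallikrein whose activity can induce TSLP, rose by 0.89 with anisomycin and 1.12 with imiquimod, and Spink5, the gene of its inhibitor, by 1.33 and 0.71. Rxra, a nuclear receptor gene, was at 8.52, 8.95 and 9.17 in anisomycin ears, 9.57, 9.63 and 9.58 in imiquimod ears and 9.71, 9.69 and 9.74 in vehicle ears. All anisomycin arrays were below all others for Rxra. Its change was -0.83 with anisomycin (SE 0.13, limma adjusted p = 0.000643) and -0.12 with imiquimod (limma adjusted p = 0.541), and the direct difference was -0.71 (limma adjusted p = 0.00596). Rxrb, of the same list, was at -0.14 and -0.10 against vehicle and was not called (limma adjusted p = 0.0755 and 0.217). Vdr, the vitamin D receptor gene, was 0.45 higher with anisomycin than with imiquimod (limma adjusted p = 0.00946). Stim1 changed by -1.01 with anisomycin (SE 0.091, limma adjusted p = 1.86e-05) and by -0.53 with imiquimod. The difference of -0.48 between the treatments was also called for Stim1 (limma adjusted p = 0.00684). Notch1 changed by -0.28 and -0.29 against vehicle, and both were called. The part of these genes in the Tslp result was not tested.

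Most other alarmin and IL-1 family genes rose with both treatments. Of 9 measured, 8 rose and 1 (Hmgb1, a nuclear protein released on damage, at -0.77) fell with anisomycin, and 6 rose with imiquimod, with medians of 2.51 and 1.88. Among all genes 22.3% were called higher with anisomycin and 20.4% with imiquimod. Il1b rose by 6.63 and 6.10 and Il1a by 3.64 and 3.43, with no called difference between the treatments (0.53 and 0.20, limma adjusted p = 0.0794 and 0.59). The calprotectin genes S100a8 and S100a9 rose by 5.50 and 5.01 with anisomycin and by 6.62 and 6.29 with imiquimod. They were lower in anisomycin than in imiquimod ears, with differences of -1.13 and -1.28 (limma adjusted p = 0.000409 and 0.000109).

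**Figure D3:**
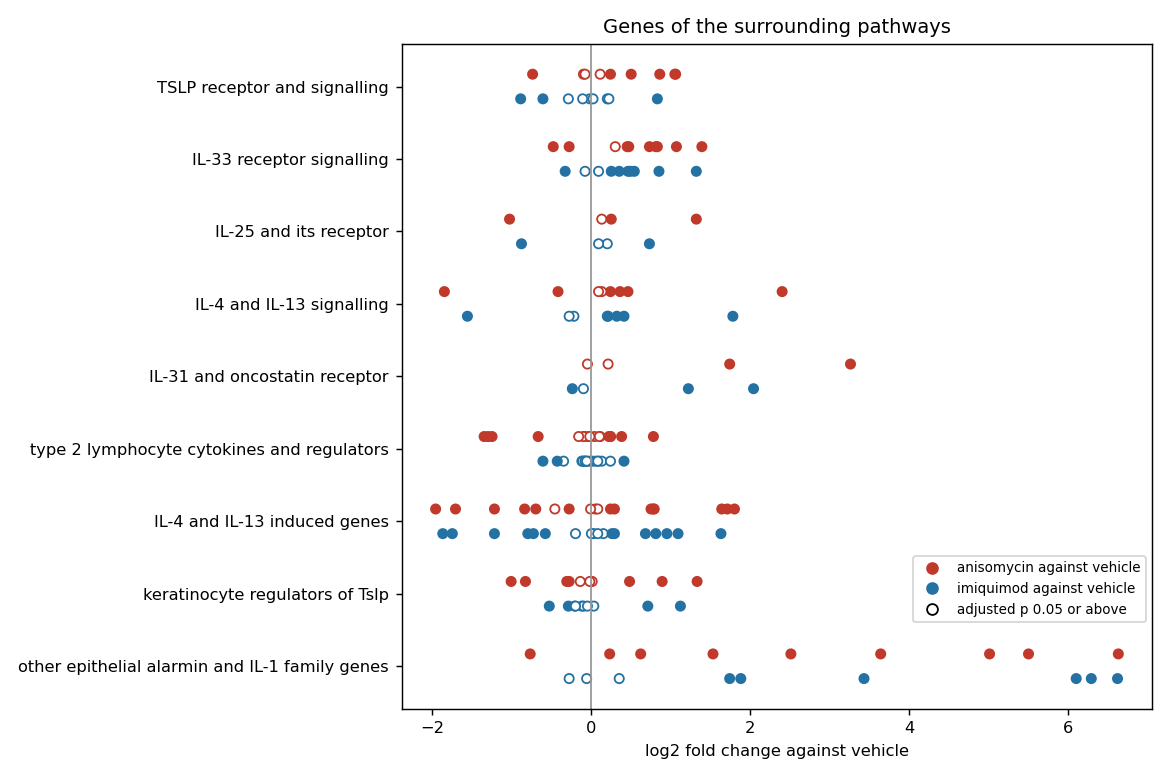
Log2 fold changes against vehicle of the measured genes of 9 lists, red for anisomycin and blue for imiquimod, 1 point a gene, filled where called at an adjusted p under 0.05. Oncostatin M lies at 3.26 and 2.04 and its receptor at 1.74 and 1.22. Most type 2 lymphocyte genes lie near 0, some of them, such as Il5, with low signals.

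Markers of cells that make or receive these cytokines were measured in the same arrays. Counts here stand against 45.6% of all genes called with anisomycin and 42.7% with imiquimod. Of 10 mast cell markers 5 fell and 1 rose with anisomycin and 7 fell and 1 rose with imiquimod, with medians of -0.27 and -0.32. The gene that rose was Hdc (3.35 and 3.09), the histidine decarboxylase gene, which other myeloid cells also make. Among those that fell were Mrgprb2, a receptor of connective tissue mast cells (-0.85 and -0.91), the tryptase gene Tpsb2 (-0.66 and -0.53) and Kit (-0.47 and -0.84). The mean over the 10 genes, 6.75 to 6.85 in anisomycin ears, 6.60 to 6.80 in imiquimod ears and 6.72 to 6.79 in vehicle ears, joins the Hdc rise with these falls. Basophil markers gave 1 rise and 1 fall among 5 in each contrast with vehicle. Of 6 eosinophil markers 2 rose with anisomycin, Siglecf by 0.39 and Ccr3 by 0.31, which are named after their values were seen, and none passed in limma's test with imiquimod. The eosinophil granule genes Epx, Prg2 and Prg3 were at 0.02, 0.06 and 0.06 with anisomycin and were not called. T cell markers gave 1 rise and 3 falls among 9 with anisomycin and 1 rise and 4 falls with imiquimod.

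Myeloid and structural marker lists differed in how far they moved. The same shares of all genes called, 45.6% with anisomycin and 42.7% with imiquimod, stand beside these counts. All 8 neutrophil markers rose with both treatments, with a list mean of 7.81 to 8.26 in anisomycin ears, 8.01 to 8.20 in imiquimod ears and 5.12 to 5.31 in vehicle ears. Of 7 monocyte and macrophage markers 6 rose with anisomycin and 5 with imiquimod, with a list mean of 8.64 to 8.87, 8.46 to 8.54 and 7.32 to 7.46 in anisomycin, imiquimod and vehicle ears. Of 7 basal keratinocyte markers 3 rose and 2 fell with anisomycin and 4 rose and 2 fell with imiquimod, with medians of 0.14 and 0.19. Their mean, 10.82 to 10.91, 10.73 to 10.83 and 10.92 to 11.11 in the same order, includes the fall of Krt15, a keratin of resting basal and hair follicle cells (-2.46 and -2.54). Of 5 suprabasal markers 1 rose and 4 fell with anisomycin and 1 rose and 1 fell with imiquimod, with a list mean of 9.77 to 10.87, 11.10 to 11.47 and 11.29 to 11.72. Of 7 endothelial markers 2 rose and 2 fell with anisomycin and 1 rose and 3 fell with imiquimod, with a list mean of 7.44 to 7.79, 7.08 to 7.20 and 7.30 to 7.71. Of 7 fibroblast markers 6 fell and 1 rose with anisomycin and 6 fell with imiquimod, with a list mean of 10.05 to 10.11, 9.85 to 10.01 and 10.77 to 10.98. All 7 skeletal muscle markers fell with both treatments, with a list mean of 8.04 to 8.23, 7.75 to 8.44 and 9.77 to 10.50 in the same order. Dendritic and Langerhans cell markers gave 2 rises and 1 fall among 7 with anisomycin and 1 rise and 2 falls with imiquimod. The part of any of these cell types in the Tslp, Il33 and Il4ra results was not tested.

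**Figure D4:**
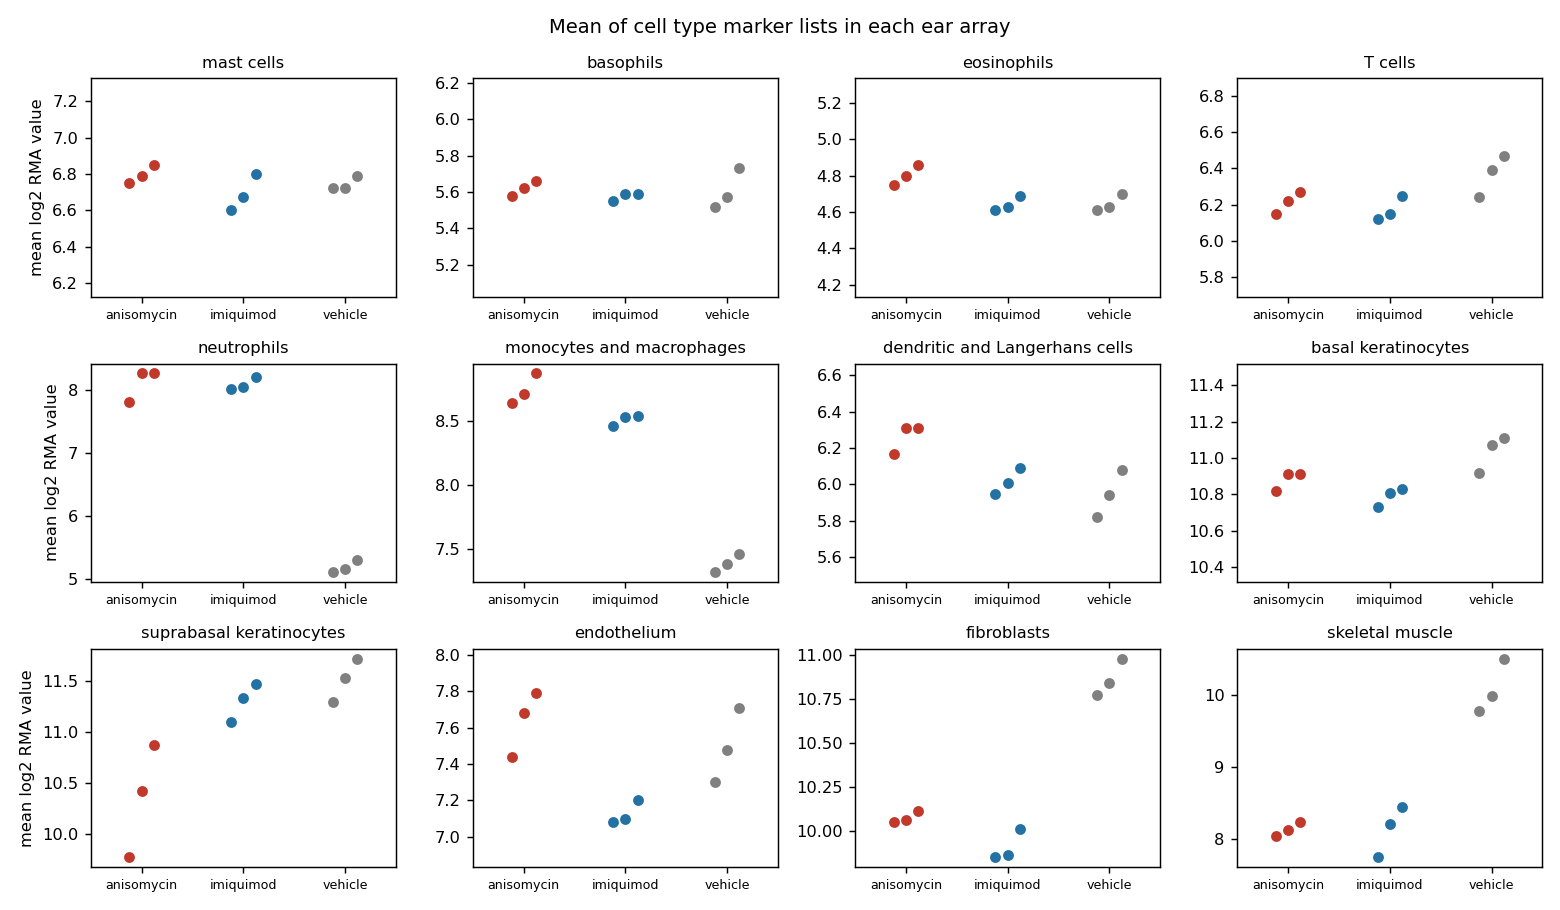
Mean log2 RMA value of 12 lists of cell type markers in each array, points sorted by level within a group. Neutrophil markers reach 8.26 in anisomycin ears and 8.20 in imiquimod ears against at most 5.31 in vehicle ears, while basophil means lie between 5.52 and 5.73 over all arrays. A list mean can join opposite changes, as for the mast cell markers, where Hdc rose by 3.35 and 3.09 and the others fell or were not called.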

How the data were processed

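Total RNA of whole mouse ear skin was measured on 9 arrays, 3 for each treatment and 3 for vehicle; the array type, per the labels, was the Affymetrix Mouse Gene 1.0 ST. The authors deposited log2 expression values for 35556 probe sets; RMA is named in the submitters' processing notes, the values run between 2.39 and 13.97, and no genome build was named in the labels or headers read here. Of these, 21789 probe sets carry 1 gene symbol in the platform annotation, and 19938 genes were kept, each by its probe set with the highest mean over all arrays. Group means were fitted over all 9 arrays with limma 3.58.1 in R 4.3.3 (lmFit, eBayes, 6 residual degrees of freedom), and p-values were adjusted by Benjamini-Hochberg over all 19938 genes with a threshold of 0.05. The fit was checked on simulated data with independent errors of its own fitted spread. Such data hold no shift shared by the genes of an array, so the check does not cover that. The number of arrays limits the precision, and an exact permutation test of 3 against 3 cannot go below p = 0.1. The measured genes and the gene lists were chosen with earlier results of these data known. The genes named are all 9 measured genes, up to 4 called genes of each list in each contrast by size of change, chains and ligands that share a complex with them, and, for genes ranging over at least 1 on the log2 scale, the 3 genes of nearest pattern. Alternatives were the variance prior, a filter on dim genes, scaling, probe set averaging, array weights, a replicate block, the groups fitted and each array left out. Promoter sequences are from RefSeq, build GRCm38.p6. Genes not found under a single symbol were not analysed here.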

Additional observations from a re-analysis of the deposited data

How the results depend on the processing

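Over 18 settings, 446 of 480 values of the 9 genes kept their direction and their side of the threshold. The log2 rise over vehicle with anisomycin was 2.13 to 2.59 for Tslp, 2.52 to 2.99 for Il33 and 2.41 to 2.64 for Il4ra, and all were called throughout. With array weights the contrast of anisomycin with imiquimod had 8557 called genes, against 4059 as reported, and 8 called genes of the 9, against 4. Of these 8, 7 were higher with anisomycin and Il13 was lower (-0.13, limma adjusted p = 0.0389). The cause of the larger counts was not tested. Leaving out 1 array gave 2523 to 4766 called genes and 3 to 5 of the 9 for anisomycin against imiquimod, 7921 to 8725 and 6 to 8 for anisomycin against vehicle, and 7265 to 8611 and 3 to 4 for imiquimod against vehicle. Signs that turned were all of differences that were not called. With stable-gene centring, imiquimod against vehicle gave -0.02 for Il4, -0.01 for Il13 and -0.04 for Il31ra. Repeated quantile normalization gave 0.03 for Il13 with anisomycin against vehicle and 0.01 for Il13ra1 between the treatments. Single arrays turned Il13ra1 between the treatments (0.01 without anisomycin replicate 1), Il31ra with imiquimod (-0.01 without imiquimod replicate 1 and 0 without replicate 3), Il13 with anisomycin (0.01 without vehicle replicate 2), and Crlf2 and Il13 with imiquimod (-0.02 each without vehicle replicate 3). Over all arrays left out, the range was -0.05 to 0.01 for Il13ra1 between the treatments and -0.14 to 0.01 for Il13 with anisomycin, and with imiquimod it was -0.01 to 0.11 for Il31ra, -0.02 to 0.21 for Crlf2 and -0.02 to 0.12 for Il13. Of 113 called results of named pathway genes, 14 lost the call in some setting and none changed sign. Counts of called list genes between the treatments also moved with array weights, to 6 for IL-33 signalling, 3 for IL-25, 6 for IL-4 and IL-13 signalling and 8 for the IL-1 family. Samples share only a replicate number: over 9 same-numbered pairs the correlation of deviations was -0.20 to 0.20, and a sample was closest to its own number in 6 of 18 cases. With the replicate number as a block, 8924 genes were called with anisomycin and 8280 with imiquimod, both against vehicle, and 3734 between the treatments, with 8, 3 and 4 of the 9. Without detection calls, how far low signals such as those of Il4, Il5 and Il13ra2 understate a change was not tested.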

Other observations

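The anisomycin arrays were not ordered alike for all of these genes. On a scale where the imiquimod mean is 0 and the anisomycin mean is 1, the median over 324 called genes with a difference of at least 1 was 1.20 for anisomycin replicate 1, 1.00 for replicate 2 and 0.802 for replicate 3. Il4ra followed that order, at 1.14, 1.09 and 0.771, as did Il31ra, at 1.43, 1.08 and 0.49. Tslp ran the other way, at 0.734, 1.04 and 1.23, and Il33 hardly varied, at 0.967, 1.04 and 0.995.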
